A study of Mus musculus with 4 samples.

Results

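The HIN-200 genes, also called the Ifi200 or PYHIN genes, are a cluster of interferon-inducible genes on mouse chromosome 1. The 9 members described here, Aim2, Ifi203, Ifi204, Ifi206, Ifi207, Ifi209, Ifi211, Ifi213 and Mndal, were taken by symbol from the 32285 genes of the deposited matrices. Their transcripts were read in B cells, T cells, natural killer (NK) cells, classical and nonclassical monocytes and macrophages, which together held 10738 of the 11596 cells kept. The cells were blood mononuclear cells from mice of the BL/6 or the SM/J strain, aged 12 or 20 months, sequenced from the 3′ end by droplet capture after density gradient separation, a slow spin against platelets and red cell lysis. The labels name no treatment, sex or number of animals. The mouse reference genome is that of a BL/6 mouse, and SM/J is another inbred strain. Each strain was 1 expression sample, in which cells of both ages had been tagged and pooled in 1 run. Its cells were deposited as 1 matrix per age, and each such matrix is called a library here. Strain therefore cannot be told apart from the run. It also cannot be told apart from how well SM/J reads map to a reference of another strain, which bears on this cluster because its gene copy number differs between strains.

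HIN-200 proteins carry a HIN domain that binds double-stranded DNA, and most of them also carry a pyrin domain through which they bind other proteins. Aim2 is the cytosolic DNA receptor of an inflammasome: on binding DNA it recruits the adaptor Pycard (ASC), which activates caspase-1. Ifi204 takes part in sensing of cytosolic and nuclear DNA in macrophages, and Mndal is a nuclear protein named for its likeness to the human myeloid nuclear differentiation antigen. A neighbour that was read beside the members, Ifi202b, lacks the pyrin domain and opposes Aim2, and is known for differing in expression between mouse strains. Interferons induce many genes of the cluster through transcription factors that bind the interferon-stimulated response element.

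In GRCm38 the members lie between positions 173350879 and 173942672 of chromosome 1, a stretch of 592 kb, with 2 on the plus and 7 on the minus strand. Aim2 (173350879 to 173466040) and Ifi209 (173630917 to 173647928) are on the plus strand. On the minus strand stand Ifi206 (173468485 to 173491041), Ifi213 (173566283 to 173599274), Ifi207 (173723427 to 173741747), Ifi204 (173747293 to 173766943), Mndal (173849126 to 173942491), Ifi211 (173896345 to 173913046) and Ifi203 (173920407 to 173942672). All 9 are annotated as protein coding, and the annotated span of Mndal overlaps those of Ifi211 and Ifi203 on the same strand.

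The promoters are shown because members were lower together with other interferon targets in several of the comparisons that follow. RefSeq (GRCm38.p6) lists a promoter for 8 of the 9 members, with Ifi204 as the gene not listed. Each line gives the 60 bases from 80 to 21 bases before a start site, 5′ to 3′ along the gene, and capitals mark a match to GAAANNGAAA, the core of the interferon-stimulated response element, searched on both strands.
Mndal, first start, chr1:173880208-173880267, minus strand: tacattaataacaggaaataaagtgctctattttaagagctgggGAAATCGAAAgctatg
Ifi203, second start, chr1:173942513-173942572, minus strand: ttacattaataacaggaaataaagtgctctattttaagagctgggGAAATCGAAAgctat
Ifi206, chr1:173491339-173491398, minus strand: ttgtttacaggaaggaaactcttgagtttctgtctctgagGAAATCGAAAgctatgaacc
Ifi213, chr1:173599293-173599352, minus strand: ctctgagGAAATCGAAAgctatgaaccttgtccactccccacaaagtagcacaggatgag
Ifi207, chr1:173741830-173741889, minus strand: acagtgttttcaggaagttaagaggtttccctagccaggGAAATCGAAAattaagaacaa
Ifi211, chr1:173913067-173913126, minus strand: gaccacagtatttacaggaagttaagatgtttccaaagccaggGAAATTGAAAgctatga
Ifi209, chr1:173630779-173630838, plus strand: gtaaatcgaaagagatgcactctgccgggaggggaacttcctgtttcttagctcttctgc
Aim2, chr1:173420524-173420583, plus strand: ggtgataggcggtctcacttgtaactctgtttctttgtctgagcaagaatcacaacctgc
Over the whole listed promoters, from 250 bases before to 50 after a start, 6 of the 8 members held the motif, against 3.44% of all 32851 promoters in the table. The matches shown read GAAATCGAAA in 5 of these 6 members and GAAATTGAAA in Ifi211, and a second start of Mndal held a further match on the other strand. Ifi209 and Aim2 had no match, their nearest stretches sharing 7 of the 8 fixed letters. The first start of Ifi203, which is not shown, had no match either. The Mndal and Ifi203 windows shared an unbroken run of 59 bases, and the Ifi206 and Ifi213 windows a run of 27 bases. A gamma-activated site, spelled TTCNNNGAA, was in 0 of the 8 member promoters and in 8.3% of all promoters. A match describes these letters in the reference genome only.

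Depth and cell numbers set what could be read. The libraries held 14250603 to 30627356 unique molecular identifiers (UMIs) of genes, the kept cells a median of 4060 to 8837 UMIs, and libraries shared 0 to 3 cell barcodes. UMIs were summed over the cells of a class in a library and are given as CPM, the class sum of each library being scaled to the same total, so levels are compared within a gene and not between genes. Cell classes were named from their markers after clustering, and 0 of the 9 members were among the 2000 variable genes that the clustering used, whereas Ifi202b was. B cells numbered 951 to 2004 per library, T cells 231 to 530, NK cells 50 to 89, classical monocytes 99 to 493, nonclassical monocytes 172 to 672 and macrophages 30 to 398. The macrophage class carried 11 of 11 macrophage markers, led by Prg4, Alox15 and Cd5l. NK cells and macrophages were each 1 cluster in both strains, and T cells drew on the same 4 clusters in unequal shares: at 12 months cluster 8 held 39.5% of the BL/6 and 7.22% of the SM/J T cells. B cells and both monocyte classes drew on different ones: classical monocytes were all of cluster 4 in BL/6 and 97.4% and 93.9% of cluster 23 in SM/J at 12 and 20 months, and nonclassical monocytes were mainly of cluster 5 in BL/6 and of cluster 22 in SM/J. With 1 library per group no test was possible, intervals cover counting error only, and the 3 tagged aliquots of each library are given as its inner spread. Nothing in the labels says that an aliquot is 1 animal.

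**Figure D1:**
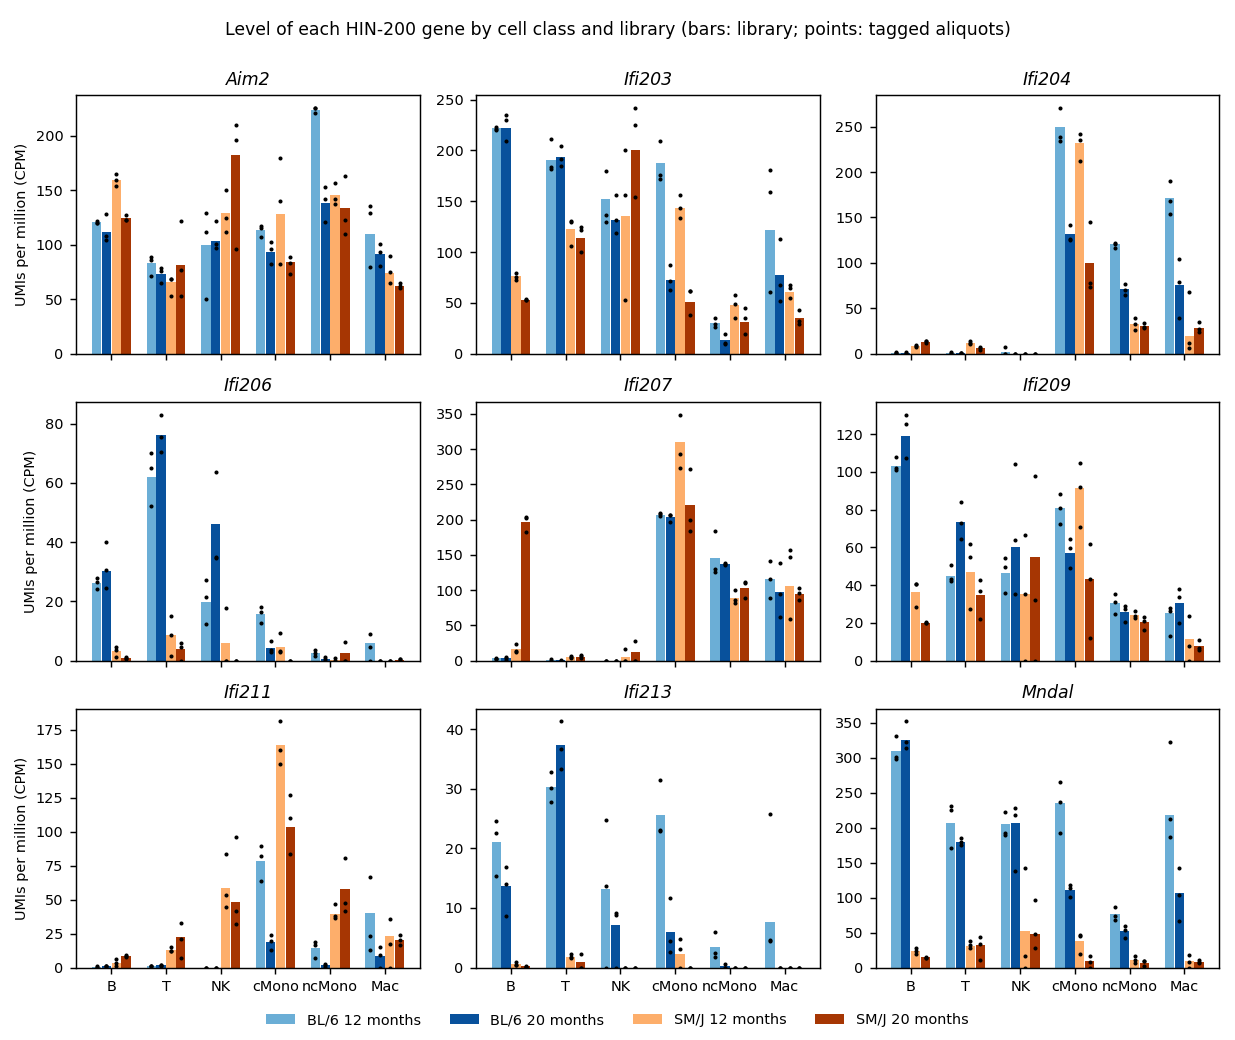
Level of each of the 9 HIN-200 members (1 panel per gene, CPM of the summed UMIs, linear axis from 0) in 6 cell classes: B cells (B), T cells (T), NK cells (NK), classical monocytes (cMono), nonclassical monocytes (ncMono) and macrophages (Mac). Bars stand for the BL/6 and SM/J libraries at 12 and 20 months and points for the 3 tagged aliquots of each. Mndal stands highest in BL/6 B cells (310.1 and 326 CPM), Ifi204 in 12-month classical monocytes (250.1 and 232 CPM), and Ifi207 is high in B cells of the SM/J 20-month library only (196 CPM against at most 15.9 CPM in the other B cells).

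The members divided by cell class in BL/6. Mndal and Ifi203 were highest in B cells and were also read in the other classes. At 12 months Mndal stood at 310.1 CPM in B cells, 235 in classical monocytes, 218 in macrophages, 206 in T cells, 205 in NK cells and 76.7 in nonclassical monocytes. The Mndal aliquots of macrophages (212, 323 and 186 CPM), T cells (225, 231 and 171 CPM) and NK cells (192, 190.4 and 222 CPM) overlapped, so these neighbours in the order did not differ beyond their spread, while nonclassical monocytes lay below these classes. The macrophage aliquots also overlapped those of B cells and classical monocytes at this age, which are given further on. B cells thus did not stand above macrophages beyond this spread. Ifi203 ran from 222 CPM in B cells to 29.8 CPM in nonclassical monocytes. Ifi206 and Ifi213 were highest in T cells, at 62 and 76.2 CPM for Ifi206 and 30.2 and 37.3 CPM for Ifi213 at the 2 ages.

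Ifi204, Ifi207 and Ifi211 were the myeloid members. In BL/6 at 12 months Ifi204 stood at 250.1 CPM in classical monocytes, 172 in macrophages and 121 in nonclassical monocytes, against 0.928 CPM in B cells (8 UMIs). Ifi207 stood at 207, 146 and 116 CPM in classical monocytes, nonclassical monocytes and macrophages, and was listed with 0 UMIs in BL/6 NK cells of both ages. Ifi211 stood at 78.8 CPM in BL/6 classical monocytes and 0.58 CPM in B cells at 12 months. In each of the 4 libraries these 3 genes were at their highest in classical monocytes.

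Aim2, the inflammasome receptor, was read in every class at every age. Its highest BL/6 level was in nonclassical monocytes, with aliquots at 225, 226 and 220.4 CPM at 12 months, and its lowest in T cells, at 83.4 and 73.5 CPM. In SM/J the order differed, with 159 CPM in B cells as the highest class at 12 months and 182 CPM in NK cells (30 UMIs) at 20 months. In each of the 4 libraries the ratio of its highest to its lowest class was the smallest of the 9 members.

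Per cell, the family was common at equal depth. After thinning of each cell to 1000 UMIs, 55.2% and 53% of BL/6 B cells held a UMI of at least 1 member, against 26.5% and 32.1% of SM/J B cells. Unthinned, 91.4% of BL/6 B cells held one at either age, against 71.2% of SM/J B cells at 12 months and 87.0% at 20 months. BL/6 platelets, a class that should hold little of these RNAs, had a member UMI in 3.33% of 150 cells and 1.73% of 173 cells at a median of 1034.5 and 998 UMIs. At 12 months classical monocytes held the most members per thinned cell of the 6 classes, with 2 or more members in 28.2% of BL/6 and 26.3% of SM/J cells. At 20 months these shares were 10.6% and 5.05%, and B cells held the most in BL/6 (2 or more members in 15.0% of cells) and NK cells the highest mean number in SM/J.

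In B cells 8 of the 9 members differed past 2-fold between the strains. Mndal, Ifi203, Ifi209, Ifi206 and Ifi213 were lower in SM/J than in BL/6 B cells, and Ifi204, Ifi207 and Ifi211 were higher, each past 2-fold at both ages. That is 5 lower and 3 higher of 9 members, beside 7.41% of all genes lower and 7.32% higher at 12 months, and 18.2% lower and 14.5% higher at 20 months. Over the 6 classes, 17 member and class values were lower and 7 higher of the 43 with at least 20 UMIs at 12 months (of 54 possible), beside 6.68% and 6.29% of all gene and class values. At 20 months 17 were lower and 8 higher of 43, beside 8.73% and 8.39%. Without either of 2 SM/J aliquots (tags 7 and 9) the higher values at 12 months were 4 in place of 7. At 12 months fewer were also higher with a mitochondrial limit of 5% or at least 100 UMIs. With thinned cells fewer were higher at both ages and fewer lower at 12 months. The last section gives these counts. The B cells of the strains lay in different clusters: cluster 0 held 65.9% and 58.4% of the BL/6 B cells at 12 and 20 months, and clusters 2 and 18 held 43.5% and 44.7% of the SM/J B cells at 12 months and 15.3% and 25.4% at 20 months, when cluster 24 held 52.5%. Without clusters that held 90% or more cells of 1 strain, both monocyte classes could not be read, and at 20 months B cells could not either. Of the 24 values left at 12 months, 10 were lower and 2 higher in SM/J, beside 9.32% and 5.11% of all gene and class values. Of the 18 left at 20 months, 9 were lower and 2 higher, beside 6% and 7.61%. In these B cells plasma cell markers summed to 352 and 342 CPM in BL/6 and 945 and 1459 CPM in SM/J, and neutrophil markers to 336 CPM in SM/J at 12 months against 1.74 to 3.42 CPM in the other libraries. Their part in the B cell values was not tested.

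Mndal, as its reads were assigned, was lower in SM/J in every class. In B cells its aliquots stood at 301, 331 and 299 CPM in BL/6 at 12 months and 323, 352 and 314 CPM at 20 months. The SM/J aliquots stood at 23.6, 28.2 and 19.3 CPM and 14.3, 13.9 and 15.6 CPM. Every SM/J aliquot lay below every BL/6 aliquot, and the log2 ratio of SM/J over BL/6 was -3.71 (95% interval -3.95 to -3.48) at 12 months and -4.48 (95% interval -4.67 to -4.30) at 20 months. The difference was past 2-fold in the other 5 classes too at both ages, from -1.96 in NK cells at 12 months to -4.48 in macrophages at 12 months. Summed with Ifi211 and Ifi205, with which its 3′ end shares sequence, it was within 2-fold in NK cells and both monocyte classes at both ages, as given with the shared ends. In all 12 class and age pairs the aliquots of the strains did not overlap. The share of all genes without overlap was not computed. Of the member values within 2-fold between the strains, 7 of 19 at 12 months and 6 of 18 at 20 months also did not overlap.

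Ifi213 and Ifi206, which in BL/6 were highest in T cells, were sparse in SM/J. Summed over all 6 classes, the Ifi213 UMIs numbered 344 for BL/6 at 12 months and 197 at 20 months, against 9 and 5 for SM/J. Its B cell log2 ratio was -5.14 (95% interval -7.04 to -3.76) at 12 months and -6.06 (95% interval -7.99 to -4.62) at 20 months. Ifi206 in T cells stood at 62 and 76.2 CPM for BL/6 at the 2 ages and at 8.69 and 3.88 CPM for SM/J, a log2 ratio of -2.83 and -4.30. Both genes were thus lower past 2-fold in B and T cells at both ages, and the aliquots of the strains did not overlap there.

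Ifi203 and Ifi209 were lower in SM/J B cells, and their ratios in the other classes were mostly smaller. Ifi203 in B cells stood at 222 and 222 CPM for BL/6 at the 2 ages and at 76.2 and 53 CPM for SM/J, a log2 ratio of -1.54 (95% interval -1.68 to -1.40) and -2.07 (95% interval -2.20 to -1.93). Its T cell ratios were -0.64 and -0.77, its classical monocyte ratios -0.39 and -0.52, and in nonclassical monocytes it was higher in SM/J, at 0.69 and 1.26. Ifi209 in B cells stood at 103 and 119 CPM for BL/6 at the 2 ages and at 36.5 and 20 CPM for SM/J, a log2 ratio of -1.50 and -2.58, against 0.18 and -0.40 in classical monocytes. It was also lower past 2-fold at 20 months in macrophages, at -1.98 from 18 BL/6 and 44 SM/J UMIs, and in T cells, at -1.08. Summed with Ifi214, which shares much of its 3′ end, it was -1.90 in these macrophages and -0.91 in the T cells, so the T cell value was within 2-fold in the sum. Ifi203 was lower in macrophages, at -1.01 and -1.14. B cells were the class with the most Ifi203 in BL/6. In SM/J these were classical monocytes at 12 months (143 CPM) and NK cells at 20 months (201 CPM). B cell markers summed to 1339.8 and 620.0 CPM in the SM/J nonclassical monocytes, against 112 and 118 CPM in BL/6. Their part in the higher Ifi203 of those cells was not tested.

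The strain direction of the myeloid member Ifi204 differed between classes. Ifi204 in B cells stood at 0.928 and 0.789 CPM for BL/6 at the 2 ages and at 8.75 and 13.1 CPM for SM/J, from 8 and 3 UMIs in BL/6, and its log2 ratio was 3.24 (95% interval 2.17 to 4.51) and 4.05 (95% interval 2.49 to 6.34). In nonclassical monocytes Ifi204 went the other way, at 121 and 70.8 CPM for BL/6 at the 2 ages and at 32.6 and 30.7 CPM for SM/J, a log2 ratio of -1.89 (95% interval -2.24 to -1.56) and -1.20 (95% interval -1.73 to -0.72). The part of the B cell markers in this result was not tested either. In macrophages Ifi204 was likewise lower in SM/J, at -3.14 and -1.43, where erythroid markers summed to 5528 CPM in the SM/J 12-month cells and 30 to 790 CPM in the other libraries. Platelet markers summed to 909 and 2462 CPM in BL/6 and 2783 and 1874 CPM in SM/J macrophages at 12 and 20 months. The part of erythroid and platelet RNA was not tested.

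Ifi211, as its reads were assigned, was higher past 2-fold in SM/J B cells, T cells and both monocyte classes at both ages. Much of its 3′ end is shared with Ifi205 and Mndal, and the sum of the 3 genes, given with the shared ends, also holds Mndal, which was more abundant than Ifi211 in these BL/6 cells, so whether the higher Ifi211 holds was not tested. In classical monocytes its aliquots were 81.9, 63.5 and 89.5 CPM and 19.7, 13.2 and 23.8 CPM in BL/6 at 12 and 20 months, and 149.9, 160.4 and 181 CPM and 110.3, 127 and 83.6 CPM in SM/J. The log2 ratio was 1.06 (95% interval 0.74 to 1.37) and 2.44 (95% interval 1.99 to 2.89), with no overlap of aliquots. In nonclassical monocytes it was 1.44 and 5.07, and in B cells 2.56 and 3.01. In T cells it was 3.45 (95% interval 1.72 to 5.84) and 3.77 (95% interval 2.34 to 5.52), from 3 and 5 BL/6 UMIs. Macrophages stood at -0.79 at 12 months and 1.27 at 20 months, and the aliquots of the strains overlapped at 12 months.

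The remaining classes gave fewer members that could be read. In T cells 2 of 8 members were higher in SM/J at 12 months, Ifi204 and Ifi211, and 3 lower, Ifi206, Ifi213 and Mndal, beside 3.2% of all genes higher and 9.86% lower. At 20 months 1 of 7 was higher, Ifi211, and 4 lower, Ifi206, Ifi209, Ifi213 and Mndal, beside 4.85% and 5.86%, with Ifi209 within 2-fold in its sum with Ifi214. The T cells differed in make-up between the strains. At 12 months NK cell markers summed to 1327 CPM in BL/6 and 209 CPM in SM/J T cells, erythroid markers to 400.5 and 93.3 CPM, and cluster 8 held 39.5% and 7.22% of the class. Macrophage markers summed to 54.7 and 56.2 CPM in BL/6 T cells at 12 and 20 months and to 165 and 169 CPM in SM/J. At 20 months cluster 11 held 43.6% and 22.9% and cluster 13 24.7% and 41.1%. The part of this make-up in the T cell values was not tested. In NK cells 4 members had 20 or more UMIs, and Mndal was the 1 past 2-fold, lower beside 8.27% of all genes at 12 months and 6.07% at 20 months, with 93 and 58 UMIs in BL/6 and 9 and 8 in SM/J. Aim2 was within 2-fold between the strains in B cells (0.40 and 0.15) and in classical monocytes (0.17 and -0.15), with overlap of aliquots in classical monocytes at both ages.

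**Figure D2:**
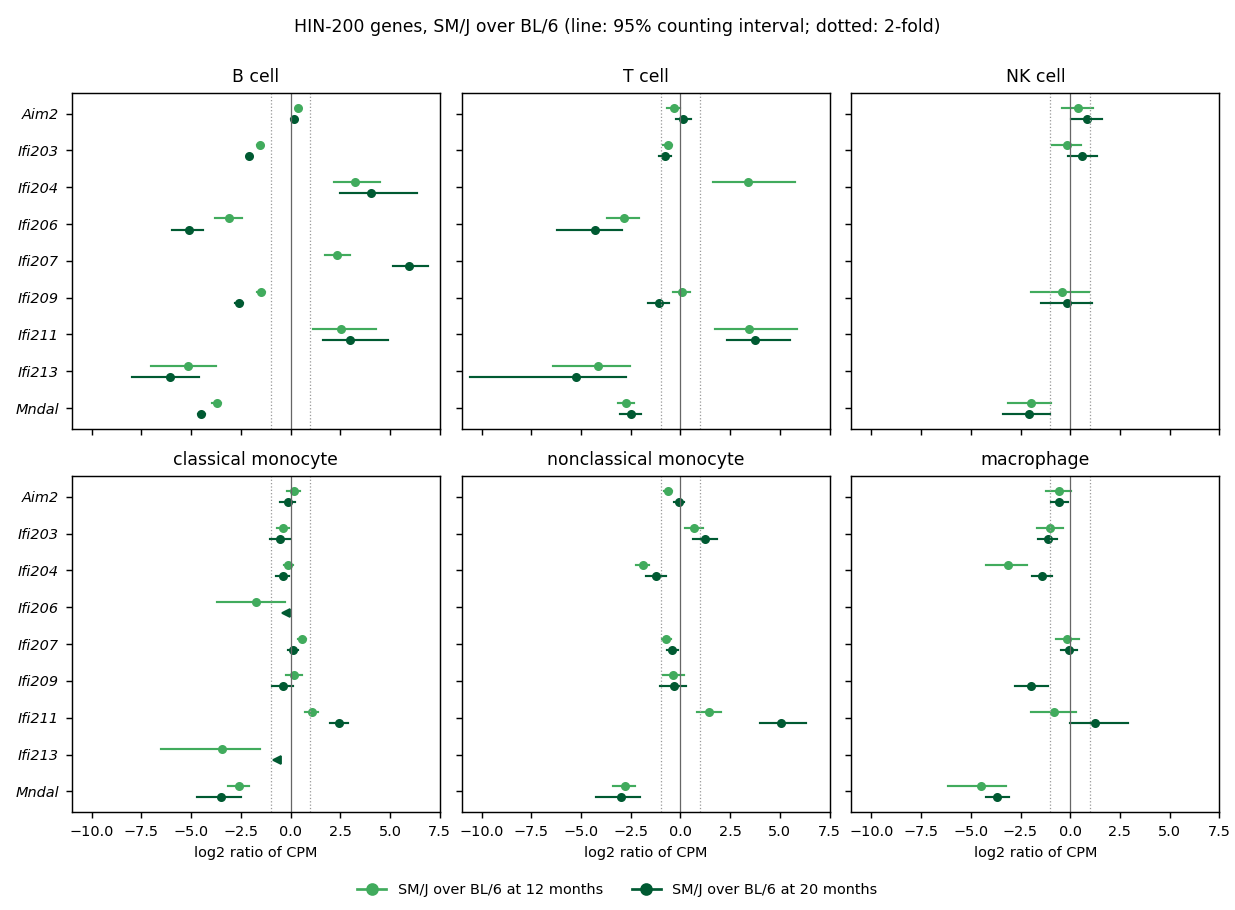
Log2 ratio of SM/J over BL/6 CPM for each member with at least 20 UMIs over both libraries, in the 6 cell classes at 12 and 20 months, with lines for 95% intervals of counting error. Dotted lines mark 2-fold, and triangles mark bounds for genes with 0 UMIs in 1 library, set at a floor of 3 counts. Mndal lies left of the 2-fold line in all 6 classes, and in B cells 5 members lie to the left and 3 to the right at both ages.

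Ifi202b, the Aim2 antagonist next to Ifi203 in the cluster, was read in SM/J and had 0 UMIs in every BL/6 class. In SM/J classical monocytes its aliquots stood at 698, 779 and 614 CPM at 12 months and 208, 479 and 316 CPM at 20 months. Against a floor of 3 counts per BL/6 library this was higher by at least 9.25 and 9.08 on the log2 scale. Ifi202b was among the genes used for clustering and among the leading genes of cluster 23, the SM/J classical monocytes, so its levels by class are a description. SM/J macrophages stood at 181 and 141 CPM, NK cells at 135 and 201 CPM and nonclassical monocytes at 88.4 and 77.6 CPM. B cells stood at 1.63 and 1.08 CPM, so the SM/J signal was mostly myeloid and NK. The remaining neighbours were sparse: Ifi208 was highest in BL/6 T cells at 20 months (53 CPM), Ifi214 in SM/J NK cells at 20 months (91.1 CPM from 15 UMIs), and Ifi205 in BL/6 classical monocytes at 12 months (31.7 CPM).

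Sequence shared between the genes limits which member a read can be assigned to. Of the windows of 90 bases in the last 500 bases of the longest coding transcript, 59.4% of those of Ifi211 were found in transcripts of Ifi205 or Mndal, 58.6% of those of Ifi209 in Ifi214, 8.52% of those of Mndal in Ifi205 or Ifi211 and 3.65% of those of Ifi213 in Ifi208. Aim2, Ifi203, Ifi204, Ifi206, Ifi207 and Ifi202b shared 0 such windows. In windows of 50 bases the shares were 77.4% for Ifi211, 63.4% for Ifi209, 22.0% for Mndal, 12.6% for Ifi213, 11.5% for Ifi206 (with Gm18752), 2.22% for Ifi204 and 1.77% for Aim2, and 0 for Ifi203, Ifi207 and Ifi202b. A read of Mndal, Ifi211 or Ifi205 that is assigned to the wrong one of the 3 stays in their sum, although a read that fits several genes may also go uncounted. That sum had a log2 ratio of SM/J over BL/6 in B cells of -3.50 and -3.82. In classical monocytes the sum differed by -0.71 and -0.10, where Mndal alone was -2.61 and -3.48. The sum was also lower past 2-fold in T cells (-2.24 and -1.74) and macrophages (-3.01 and -2.01). It was within 2-fold in NK cells (-0.81 and -0.92) and in nonclassical monocytes, where its direction turned between the ages (-0.90 and 0.36). The strain difference of Mndal thus held past 2-fold in the sum in B cells, T cells and macrophages and not in NK cells or either monocyte class. BL/6 B cells at 12 months held 310.1 CPM of Mndal and 0.58 CPM of Ifi211, so the sum follows Mndal there and does not show whether the higher Ifi211 of SM/J holds. Ifi209 with Ifi214 differed by -1.09 and -2.58 in B cells, and Ifi213 with Ifi208 by -3.17 and -3.62. These windows come from the reference genome, and how SM/J copies of these genes map was not tested.

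Ifi207 in SM/J B cells had the widest age ratio among the member values with at least 20 UMIs. The BL/6 aliquots stood at 4.04, 2.42 and 2.94 CPM at 12 months and 1.61, 5.4 and 3.06 CPM at 20 months. In SM/J they stood at 11.6, 13 and 23.4 CPM at 12 months and 203, 203 and 183 CPM at 20 months. The SM/J 20-month B cells alone were high, with a log2 ratio of 20 over 12 months of 3.63 (95% interval 3.35 to 3.92) in SM/J and 0.01 (95% interval -1.10 to 1.04) in BL/6. The high level lay in a part of these cells. Cluster 24, which was led by Gnb3 and Zcwpw1 at a median of 12491.5 UMIs a cell, held 845 of the 1611 B cells of SM/J at 20 months, 15 at 12 months and 0 in BL/6. At 20 months its Ifi207 level stood at 248 CPM (95% interval 239.6 to 257).

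The other B cell clusters of the same library were lower or small. Cluster 2 stood at 4.85 CPM and cluster 18 at 10.5 CPM in SM/J at 20 months, and at 6.21 and 8.63 CPM at 12 months. Cluster 17, which was led by cell cycle genes such as Mki67 and Cdk1 and held 68 cells of that library, stood at 228 CPM, and the 11 cells of cluster 6 at 141 CPM from 12 UMIs. All 3 aliquots of SM/J at 20 months held Ifi207 in cluster 24, at 244, 272 and 227 CPM, and the 15 cells of that cluster at 12 months stood at 265 CPM (95% interval 199.5 to 345). After thinning to 1000 UMIs, 22.4% of cluster 24 cells held an Ifi207 UMI, against 7.35% of the 68 cluster 17 cells and 0.733% of cluster 18 cells. Ifi207 had no 3′ window in common with another gene. Clusters were formed on the same cells, so these levels are a description.

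**Figure D3:**
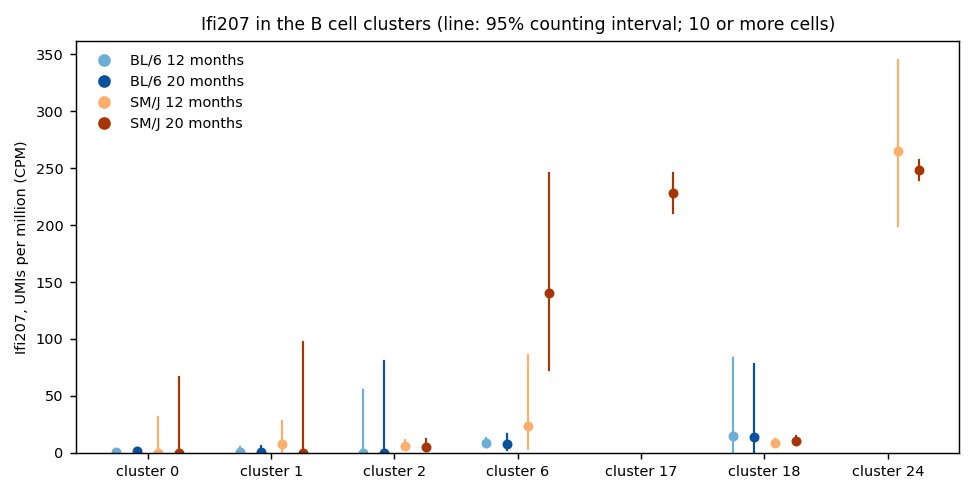
Ifi207 level (CPM) in each B cell cluster with at least 10 cells, by library, with exact Poisson 95% intervals. Clusters 24 and 17 of SM/J at 20 months stand at 248 and 228 CPM, and clusters 2 and 18 stay at or below 10.5 CPM in SM/J.

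Cluster 24 and cluster 17 also bore on the other members of SM/J B cells with age. Over all SM/J B cells, Ifi207 and Ifi211 were higher and Ifi206 lower past 2-fold at 20 months, of 8 members with enough UMIs, beside 9.46% of all genes higher and 9.1% lower. Ifi203, Ifi209 and Mndal were lower by smaller steps, with log2 ratios of -0.52, -0.87 and -0.70 and aliquots that did not overlap. The sum of Mndal, Ifi211 and Ifi205 was -0.24, a sum in which Mndal had more UMIs than Ifi211 at both ages and which was not higher, and Ifi209 with Ifi214 was -1.25, past 2-fold. Without clusters 17 and 24 the ratio was 0.57 for Ifi207, 0.23 for Ifi203, -0.12 for Ifi206 (from 21 and 17 UMIs before the clusters were left out), 0.82 for Ifi211, -0.32 for Ifi209 and 0.16 for Mndal, so no member was past 2-fold. In BL/6 B cells 0 of 7 members were past 2-fold with age, beside 1.88% of all genes higher and 2.19% lower. Leaving out these clusters took the log2 ratio of SM/J over BL/6 for Ifi207 from 5.96 to 2.02 at 20 months and from 2.34 to 1.34 at 12 months. At 20 months it took Ifi203 from -2.07 to -1.32, Ifi209 from -2.58 to -2.02, Ifi206 from -5.12 to -3.36 and Mndal from -4.48 to -3.59, each still past 2-fold.

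Classical monocytes carried less of most members at 20 than at 12 months, in both strains. In BL/6, Mndal, Ifi203, Ifi211, Ifi206 and Ifi213 were lower past 2-fold, 5 of 9 members beside 2.92% of all genes. In SM/J, Mndal, Ifi203, Ifi204 and Ifi209 were lower past 2-fold, 4 of the 7 members with enough UMIs beside 3.54%. The median log2 ratio of the members was -1.09 in BL/6 and -1.08 in SM/J, where the median over all genes tested was 0.02 and 0.01. The summed level of the 9 members went from 1194 to 698 CPM in BL/6 and from 1113 to 613 CPM in SM/J. The SM/J library at 20 months held 99 classical monocytes and the one at 12 months 114.

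Ifi203 was lower by about the same step in both strains. Its aliquots were 209, 175 and 172 CPM at 12 months and 86.9, 71.7 and 62.8 CPM at 20 months in BL/6, and 144, 156 and 134 CPM and 61.3, 61.7 and 37.8 CPM in SM/J. No aliquots of the 2 ages overlapped, and the log2 ratio of 20 over 12 months was -1.36 (95% interval -1.57 to -1.16) in BL/6 and -1.50 (95% interval -2.04 to -0.98) in SM/J. The difference between the strains in these ratios was not tested.

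Mndal and Ifi204 followed. The Mndal aliquots were 266, 193 and 237 CPM and 118, 101 and 114 CPM in BL/6, and 45.9, 18.9 and 44.5 CPM and 0, 7.26 and 16.2 CPM in SM/J, the last from 8 UMIs. Its log2 ratio was -1.09 (95% interval -1.26 to -0.92) in BL/6 and -1.97 (95% interval -3.29 to -0.83) in SM/J. For Ifi204, the DNA sensor of macrophages, the aliquots were 271, 239 and 235 CPM and 126, 126 and 141 CPM in BL/6, and 236, 212 and 242 CPM and 73.5, 145 and 78.2 CPM in SM/J. The ages did not overlap in either strain, with a log2 ratio of -0.92 in BL/6 and -1.21 in SM/J.

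Ifi211, Ifi213 and Ifi206 were lower in BL/6 by the widest steps, with log2 ratios of -2.04 (95% interval -2.42 to -1.68), -2.09 (95% interval -2.78 to -1.44) and -1.88 (95% interval -2.73 to -1.08). Ifi211 was -0.66 in SM/J, and Ifi206 and Ifi213 had too few SM/J UMIs to read. The sum of Mndal, Ifi211 and Ifi205 had a log2 ratio of -1.39 in BL/6 and -0.77 in SM/J, the last within 2-fold. Ifi209 was -0.50 and -1.08 in the 2 strains. Ifi202b in SM/J was -0.97, just inside 2-fold, and Ifi205 in BL/6 was -3.62.

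Ifi207 and Aim2 were the members that differed least. Ifi207 in BL/6 classical monocytes stood at 207, 205 and 209 CPM at 12 months and 207, 197 and 207 CPM at 20 months over the aliquots, a log2 ratio of -0.02 (95% interval -0.18 to 0.13). In SM/J it was -0.48. Aim2 was -0.28 in BL/6 and -0.60 in SM/J.

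**Figure D4:**
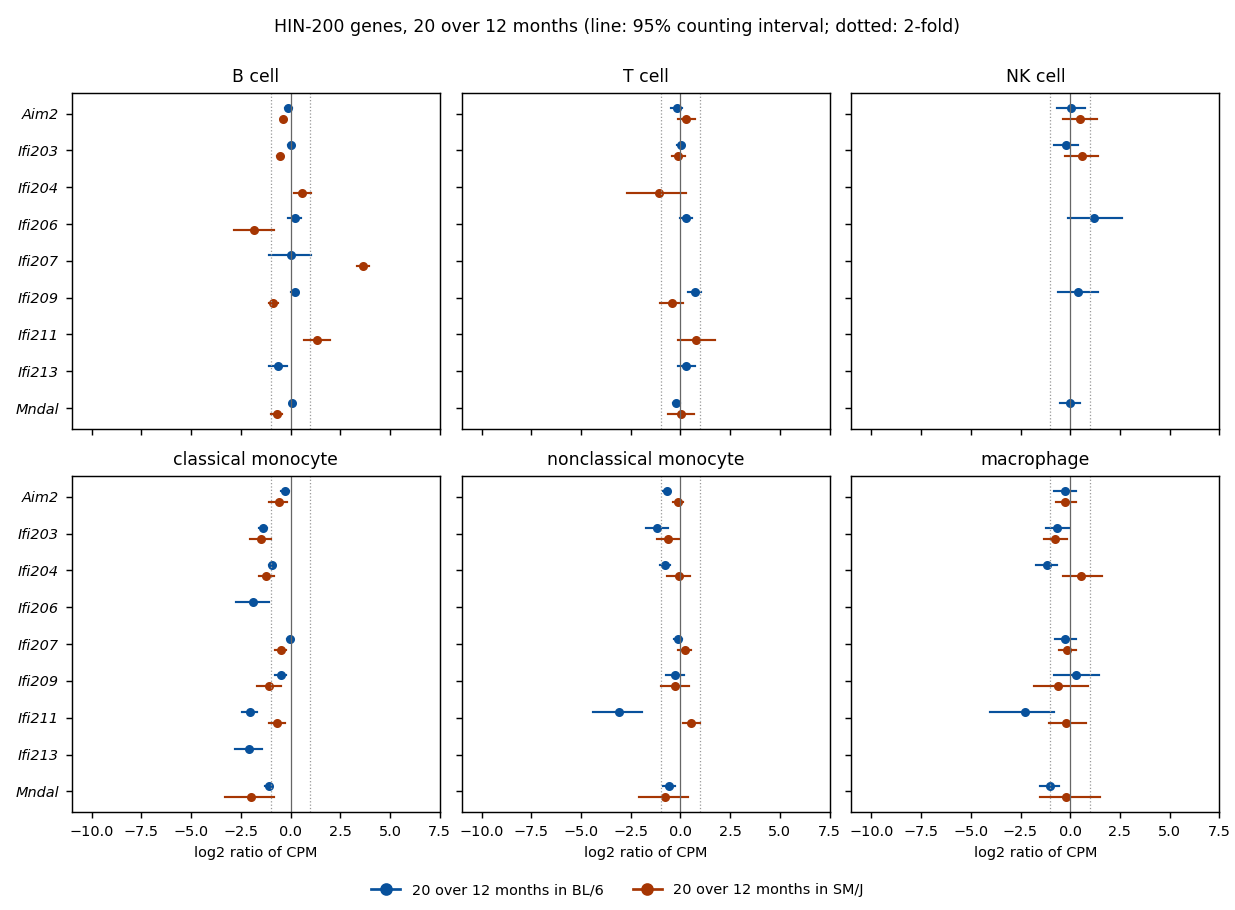
Log2 ratio of 20 over 12 months for each member with at least 20 UMIs over both ages, in the 6 cell classes of BL/6 and SM/J, with lines for 95% intervals of counting error and dotted lines at 2-fold. All plotted members lie left of 0 in classical monocytes of both strains, and Ifi207 in SM/J B cells lies farthest to the right, at 3.63.

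Other interferon targets were lower in the same classical monocytes. A list of 36 interferon-induced genes that are no members of the family, 35 of them in the files, had 21 of 34 genes lower past 2-fold in BL/6 and 27 of 34 in SM/J, beside 2.92% and 3.54% of all genes, with 0 higher in either strain. Their median log2 ratio was -1.13 and -1.42. In BL/6 Ifit1, which binds viral RNA, went from 14 to 1.07 CPM (37 and 5 UMIs) and Ifit3b from 8.67 to 0.429 CPM (23 and 2 UMIs, a log2 ratio of -4.34, 95% interval -7.47 to -2.32). In SM/J Ifit3 went from 102 to 6.18 CPM (87 and 5 UMIs) and Ifit2 from 50.4 to 3.71 CPM (43 and 3 UMIs, a log2 ratio of -3.77, 95% interval -6.10 to -2.12). The summed level of the list went from 7041 to 4836 CPM in BL/6 and from 12244 to 6343 CPM in SM/J.

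Some of the signalling genes upstream were lower as well. Of 15 listed interferon receptor and signalling genes, 5 of 15 were lower in BL/6 and 4 of 14 in SM/J, beside 2.92% and 3.54% of all genes, with 0 higher. Usp18, an inhibitor of type I interferon signalling that interferon itself induces, went from 14.7 to 1.93 CPM in BL/6 and from 36.3 to 8.65 CPM in SM/J. In the same cells the classical monocyte markers summed to 4524 and 5477 CPM in BL/6 and 6436 and 10820 CPM in SM/J at 12 and 20 months. The nonclassical monocyte markers summed to 1365 and 838 CPM in BL/6 and 1446 and 1066 CPM in SM/J. Platelet markers went from 200.3 to 455 CPM in BL/6 and from 98.4 to 119 CPM in SM/J. Plasmacytoid dendritic cell markers went from 269 to 215 CPM in BL/6 and from 404 to 173 CPM in SM/J, and neutrophil markers from 115 to 147 CPM and from 132 to 252 CPM. The part of these shifts in the member and target values was not tested.

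Few of the listed partners of the family were past 2-fold. Of 12 listed genes of the Aim2 inflammasome, 0 were lower past 2-fold in classical monocytes in either strain, and 1 was higher in BL/6, Il1b, the cytokine that the inflammasome matures, from 97.3 to 223 CPM, beside 3.48% of all genes higher. Of 13 listed DNA sensing genes, 12 of them in the files, Zbp1, a sensor of Z-form nucleic acid and itself interferon-induced, was lower in both strains, from 157 to 55.4 CPM in BL/6 and from 91.4 to 43.2 CPM in SM/J. It was the 1 gene lower of 11 with enough UMIs in BL/6 and of 7 in SM/J, beside 2.92% and 3.54% of all genes. Tmem173, which encodes STING, was higher in SM/J, from 25.8 to 64.2 CPM, beside 3.17% of all genes.

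**Figure D5:**
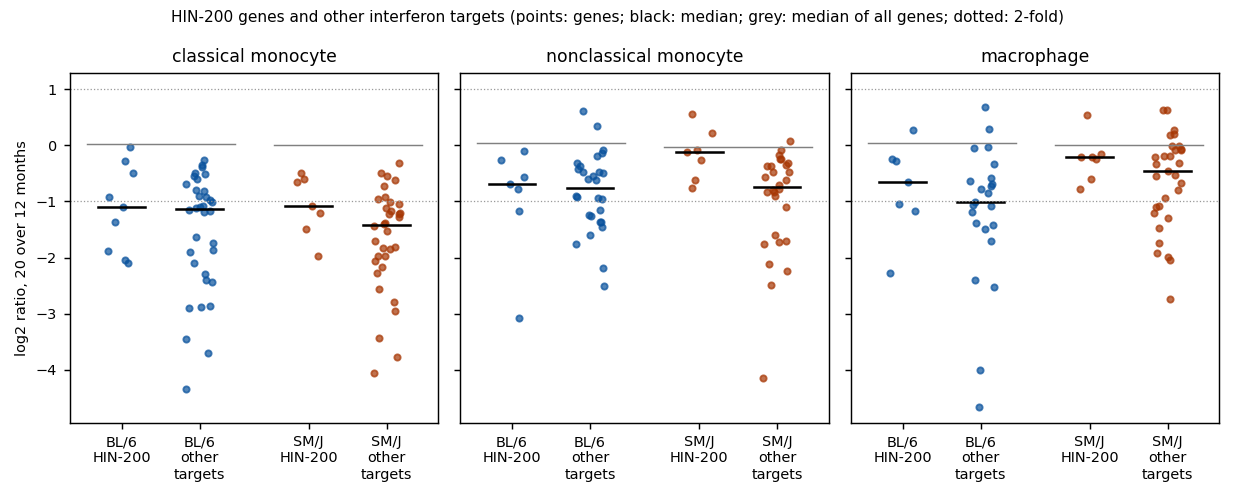
Log2 ratio of 20 over 12 months (vertical axis) in classical monocytes, nonclassical monocytes and macrophages for the HIN-200 members and the other listed interferon targets, in BL/6 and SM/J, 1 point per gene with at least 20 UMIs over both ages. Black lines mark group medians, grey lines the median of all genes tested and dotted lines 2-fold. In classical monocytes the member medians are -1.09 (BL/6) and -1.08 (SM/J) and the target medians -1.13 (BL/6) and -1.42 (SM/J).

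Between the strains, interferon targets were more often higher than lower in SM/J classical monocytes. At 12 months 19 of 35 were higher and 0 lower, and at 20 months 12 of 31 were higher and 0 lower, beside 5.47% and 5.85% of all genes higher at the 2 ages. Ifi44 stood at 427 CPM in SM/J and 1.51 CPM in BL/6, from 364 and 4 UMIs in that order, and Samd9l at 274 and 52.4 CPM. Ifi44 is also among the leading genes of the SM/J cluster of these cells, so its level there is a description. Of the 9 members 1 was higher at 12 months, Ifi211, and 3 were lower, Ifi206, Ifi213 and Mndal, beside 5.29% of all genes lower. At 20 months 1 was higher, Ifi211, and 1 lower, Mndal, beside 6.12% of all genes lower. In B cells the signalling list had 4 of 15 genes lower in SM/J at 12 months and 6 of 14 at 20 months, beside 7.41% and 18.2% of all B cell genes, and 0 higher at either age. The inflammasome list had 2 of 10 genes higher and 0 lower at each age in the same cells, beside 7.32% and 14.5% of all genes higher, so at 20 months its share was near that of all genes.

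In nonclassical monocytes 2 members and in macrophages 3 members were lower past 2-fold with age in BL/6, and 0 in SM/J. Whether the strains differed in this was not tested, and of the 2 nonclassical calls Ifi203 reversed with thinned cells and Ifi211 shares its 3′ end with genes whose sum with it, mostly Mndal in BL/6, was within 2-fold. Over the 6 classes, 10 of 41 member values were lower and 1 higher at 20 months in BL/6, beside 3.22% and 3.15% of all gene and class values. In SM/J 6 of 37 were lower and 2 higher, beside 4.79% and 5.49%. With thinned cells or at least 100 UMIs fewer were lower in each strain. Without B cell clusters 17 and 24 no value was higher in SM/J. The last section gives these counts. In BL/6 nonclassical monocytes Ifi203 and Ifi211 were lower past 2-fold, 2 of 7 members beside 2.28% of all genes, and in SM/J 0 of 7, beside 3.8%. Ifi211 stood at 16.4, 19.2 and 7.05 CPM at 12 months and 0.625, 1.96 and 2.69 CPM at 20 months in BL/6, a log2 ratio of -3.08 (95% interval -4.42 to -1.92), from 30 and 8 UMIs. The sum of Mndal, Ifi211 and Ifi205 in these cells had a log2 ratio of -0.84, within 2-fold. Ifi203 stood at 29, 26.5 and 35.3 CPM and 9.37, 19.6 and 10.8 CPM, a log2 ratio of -1.18 (95% interval -1.71 to -0.64), and with cells thinned to 1000 UMIs its direction reversed, to 0.98 from 3 and 13 UMIs. Aliquots of the ages did not overlap for either gene. Aim2 stood at 225, 226 and 220.4 CPM at 12 months and 121, 142 and 153 CPM at 20 months in BL/6, a log2 ratio of -0.69 (95% interval -0.87 to -0.52) with no overlap of aliquots. In SM/J its aliquots were 137, 156 and 142 CPM and 122, 163 and 109.6 CPM, which overlapped.

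Erythroid markers summed to 50 and 1181 CPM in BL/6 and 2263 and 81 CPM in SM/J nonclassical monocytes at 12 and 20 months, and their part was not tested. Ifi204 stood at 121 and 70.8 CPM in BL/6 nonclassical monocytes (-0.78) and at 32.6 and 30.7 CPM in SM/J (-0.09). The listed interferon targets were lower past 2-fold in 10 of 28 in BL/6 and 9 of 28 in SM/J, beside 2.28% and 3.8% of all genes, so in SM/J this list had lower genes in a class where 0 of 7 members were lower.

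In BL/6 macrophages, a class of 30 and 38 cells, Ifi204, Ifi211 and Mndal were lower past 2-fold at 20 months, 3 of 7 members beside 3.98% of all genes. In SM/J 0 of 7 were, beside 3.59%. Ifi204 aliquots stood at 190.3, 168 and 154 CPM and 104, 39.2 and 78.8 CPM in BL/6, a log2 ratio of -1.18 (95% interval -1.73 to -0.65) without overlap. Mndal stood at 212, 323 and 186 CPM and 142, 67.2 and 103 CPM, a log2 ratio of -1.04. The interferon targets were lower in 12 of 23 genes in BL/6 macrophages and 10 of 31 in SM/J, with Oasl2 from 42.5 to 1.69 CPM in BL/6 (22 and 1 UMIs, a log2 ratio of -4.65, 95% interval -10.02 to -2.02). Of the DNA sensing list in BL/6, Zbp1 went from 92.7 to 8.44 CPM and Samhd1, which degrades nucleotides, from 666 to 270.0 CPM, 2 of 6 genes lower. In SM/J macrophages Zbp1 went the other way, from 9.74 to 28.8 CPM (5 and 165 UMIs). It was the 1 gene higher of 11 there, with 0 lower, beside 7.83% of all genes higher. Platelet markers summed to 909 and 2462 CPM in these BL/6 cells, and their part was not tested.

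T and NK cells differed little with age in the members. In BL/6 T cells 0 of 6 members were past 2-fold, beside 2.09% of all genes higher and 4.81% lower. Ifi209 stood at 43.3, 42.2 and 50.9 CPM at 12 months and 64.2, 84.1 and 72.7 CPM at 20 months, a log2 ratio of 0.71 (95% interval 0.38 to 1.05) without overlap. In these T cells cluster 8 held 39.5% of the class at 12 months and 10% at 20 months, NK cell markers summed to 1327 and 175 CPM and erythroid markers to 400.5 and 67.7 CPM, and their part was not tested. In SM/J T cells 1 of 6 was lower, Ifi204, from 21 to 6 UMIs, beside 2.18% of all genes. Usp18 in T cells went from 4.65 to 34.6 CPM in BL/6 and from 42.3 to 4.85 CPM in SM/J, while Mndal was -0.20 and 0.03. In NK cells the 1 member past 2-fold, of 5 read in BL/6 and 2 in SM/J, was Ifi206 in BL/6, beside 3.42% of all genes higher in BL/6 and 4.46% higher and 3.73% lower in SM/J. It was higher, at 1.22 on 9 and 13 UMIs, with an interval of -0.12 to 2.63 that spans 0. With doublets kept, thinned cells or at least 100 UMIs, no member was higher past 2-fold with age in BL/6.

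Likeness of pattern was described by Pearson's correlation of log2(CPM + 1) over the 24 class and library sums, among 9209 genes with at least 500 UMIs. These points share cell types and libraries, so the values carry no test. Within the family, Ifi206 and Ifi213 were closest (0.89), followed by Ifi204 and Ifi207 (0.88) and by Ifi213 and Mndal (0.84), and Ifi206 and Ifi207 were the most opposed (-0.73). The 3 genes most like Ifi207 were Mcl1 (0.94), Tppp3 (0.94) and Cst3 (0.94), and those most like Ifi204 were C3 (0.93), Rnf150 (0.93) and Ppfia4 (0.92). For Mndal they were Hist1h4d (0.89), Ubb (0.87) and Rpl29 (0.86), and for Ifi211 Arhgef37 (0.87), Zfp414 (0.83) and Klhdc3 (0.81). Ifi206 was followed after Ifi213 by Mettl23 (0.79) and Dnah8 (0.78), and Ifi213 after Ifi206 by Rpl29 (0.87) and Mndal. Aim2 had the weakest nearest genes, Calhm2 (0.78), Ganc (0.78) and Umad1 (0.77), and Ifi209 was nearest to Gng2 (0.82), Tmsb10 (0.78) and Cd52 (0.78).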

How the data were processed

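Single-cell 3′ RNA-seq of peripheral blood mononuclear cells was deposited as 4 filtered gene by cell matrices, 1 per strain and age. The values are whole-number UMI counts per gene and cell, made by the authors with Cell Ranger 7.0.1 per the file headers, with tag oligo counts in the same deposited matrices. The submitters' processing notes list mm10, Cell Ranger and Seurat 4.3.0, with no role given. The sources used here do not name the annotation, how cells were called or how reads that fit several genes were treated. Cells with under 500 UMIs, under 200 genes or over 10% mitochondrial UMIs were left out, as were 125 cells called doublets by Scrublet (1.07% of 11721), run through scanpy 1.11.5. Clustering used 2000 variable genes, 30 principal components, 15 neighbours and Leiden resolution 1.0, and cell classes were named from fixed markers. Counts were summed per class and library and scaled to CPM. Intervals are exact Poisson for levels and conditional binomial for ratios, at 95%, and cover counting error only. With 1 library per group there is no test. A value was called past 2-fold among genes with at least 20 UMIs over both libraries, and 0 counts were set to a floor of 3 counts for bounds. A tag aliquot is the cells assigned to 1 of the 3 tag oligos of a library. The steps were checked on simulated counts. All 9 members are reported, and with the detected neighbours of the cluster, and of each other list at most the 2 genes with the largest ratio in each direction past 2-fold are named; the genes alike in pattern are the 3 with the highest Pearson correlation. Some genes that this rule names are not reported here. Positions come from GENCODE M21 (GRCm38), promoters from RefSeq. The members and lists were chosen with earlier results of these data known. Alternatives were other mitochondrial limits, doublets kept, other resolutions, TMM factors of edgeR 4.0.16, totals without immunoglobulin, T cell receptor and mitochondrial genes, thinned cells, other UMI minimums, clusters left out and each aliquot left out.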

Additional observations from a re-analysis of the deposited data

Results flagged for a closer look

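In B cells, Ifi209 had a log2 ratio of 20 over 12 months of 0.21 in BL/6 and -0.87 in SM/J. The aliquots of the 2 ages overlapped in BL/6 and did not overlap in SM/J, where the ratio without clusters 17 and 24 was -0.32. The sum of Ifi209 and Ifi214, which share much of their 3′ ends, had ratios of 0.24 and -1.25. In nonclassical monocytes, Ifi211 had a log2 ratio of -3.08 in BL/6, without overlap of aliquots, and 0.55 in SM/J, with overlap. The sum of Mndal, Ifi211 and Ifi205, whose 3′ ends share sequence, had ratios of -0.84 and 0.42 there. Both genes were singled out because the 2 strains went opposite ways with age while each counting interval lay off 0. The differences between the strains were not tested, and each rests on 1 library per strain and age.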

How the results depend on the processing

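Of 3184 member values recomputed under the alternatives, 3047 lay inside the counting interval of the reported value, 136 lay outside it and 1 that was past 2-fold had the opposite sign: Ifi203 in nonclassical monocytes of BL/6 with age, which was 0.98 when cells were thinned to 1000 UMIs. Thinning alone accounted for 72 of the 136, with 80 of its 153 values inside the interval. The total also holds values that could not move. A UMI minimum does not enter a ratio, so all 164 values stayed the same under either other minimum. Leaving out B cell cluster 18, B cell clusters 17 and 24 or monocyte cluster 21 changed the values of 1 class only. Counts of member values past 2-fold moved as follows. Shares of all genes are given only for the strain comparisons without clusters of 1 strain, in the B cell passage. The other counts have no such share beside them. With a mitochondrial limit of 5%, 3 were higher in SM/J at 12 months. With doublets kept, 0 were higher with age in BL/6. With thinned cells, 1 was higher and 11 lower in SM/J at 12 months, 2 higher at 20 months, 0 higher and 6 lower with age in BL/6 and 2 lower with age in SM/J. With no UMI minimum beyond 1 in each library, 4 were higher with age in SM/J. With at least 100 UMIs, 3 were higher in SM/J at 12 months, 0 higher and 6 lower with age in BL/6 and 3 lower with age in SM/J. Thinned cells left 25 values with at least 20 UMIs at 12 months between the strains, where 43 had been read; the minimum of 100 UMIs left 29. Without the 13 clusters that held 90% or more cells of 1 strain, 2 were higher and 10 lower in SM/J at 12 months, 2 higher and 9 lower at 20 months, 4 lower with age in BL/6, and 0 higher and 1 lower with age in SM/J, of 24, 18, 24 and 15 values left, with no monocytes and, in comparisons with the SM/J library at 20 months, no B cells. Without B cell clusters 17 and 24, an alternative chosen after seeing the data, 0 were higher with age in SM/J. Leaving out each aliquot in turn gave 4 to 7 higher and 16 to 18 lower in SM/J at 12 months, 7 to 8 higher and 16 to 17 lower at 20 months, 0 to 1 higher and 8 to 11 lower with age in BL/6, and 2 to 3 higher and 4 to 7 lower with age in SM/J. Where no reason is given, the cause was not tested. TMM factors moved the median of all genes by over 0.1 in 8 of 24 comparisons, by at most 0.33 in B cells between the strains at 20 months. No paired analysis was possible because each strain is 1 pooled sample, split by age, and no test was made. NK cells, macrophages of BL/6 and SM/J classical monocytes rest on few cells, so members with under 20 UMIs there were not read.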
